A study of Rattus norvegicus with 6 samples.

Results

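The genes described here are 46 rat genes of the urea cycle and of amino acid breakdown, chosen by symbol from a list of pathway enzymes and not by a measured value, though with earlier results of these data known. All 46 had a probe set annotated to them alone, out of 14217 genes with such a probe set on the array, and all 46 were bright enough to be tested, out of 9200 genes tested. They were measured in the liver of male BrlHan:WIST@Jcl(GALAS) rats that were 7 weeks old at sampling, with 3 rats on a control powdered diet and 3 on the same kind of diet to which epsilon-momfluorothrin, an insecticide of the pyrethroid class, was added for 2 weeks. The titles give the dietary level as 3000 ppm and the sample characteristics as 5000 ppm, so the group is called momfluorothrin with no dose. Each rat gave 1 Affymetrix array, and values are MAS5 signals, a linear measure of brightness per probe set (a set of short probes for 1 transcript).

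The urea cycle converts toxic ammonia, released when amino acids are broken down, into urea, and it runs mainly in the liver. It is placed in the periportal part of the liver lobule, where blood enters, together with glutaminase and several amino acid degrading enzymes. Ammonia that escapes it is captured by glutamine synthetase (Glul) in a thin rim of pericentral hepatocytes, where ornithine aminotransferase (Oat) is also enriched. Many of the enzymes that break down amino acids are controlled by glucagon, glucocorticoids and dietary protein.

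None of the 46 genes passed an adjusted p under 0.05 in limma, against 20 of all 9200 genes (0.217%, 0.196% higher and 0.0217% lower in treated livers). The lowest adjusted p among them was 0.136, for Oat in limma. The 20 calls over all genes became 4 without momfluorothrin replicate 2 and 7 without momfluorothrin replicate 3, and in no setting was a member called. At an unadjusted p under 0.05 in limma, 7 of the 46 were lower (6.18% of all genes) and 4 were higher (6.05% of all genes), together 23.9% against 12.2% of all genes. The groups did not overlap (every treated array above, or every one below, the 3 controls) for 14 of the 46, 7 lower (9.23% of all genes) and 7 higher (9.04%), together 30.4% against 18.3%.

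These shares have to be read against brightness. The median member had a mean signal of 1500, above 94.4% of all genes, and the share of all genes whose groups did not overlap went from 16.5% at a mean signal of up to 200 to 36.1% over 4000. Where all genes are weighted to the 4 ranges of mean signal that hold the members, 25.9% had groups apart and 19.5% an unadjusted p under 0.05, close to the members' 30.4% and 23.9%. The median log2 difference (momfluorothrin minus control) was -0.030 over the 46 genes and -0.012 over all genes, and 28 of the 46 were lower in treated livers, or 60.9% against 52.5% of all genes. Weighted to the same 4 ranges of mean signal, 48.5% of all genes were lower. The median of the members moved by 0.055 between arrays of 1 group (SD), more than its distance from that of all genes. With 1 array left out it ranged from -0.081 without control replicate 1 (32 of 46 lower) to -0.0021 without momfluorothrin replicate 2 (23 of 46 lower). After subtraction of the median of all genes in the same range, 24 of the 46 lay below it.

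**Figure D1:**
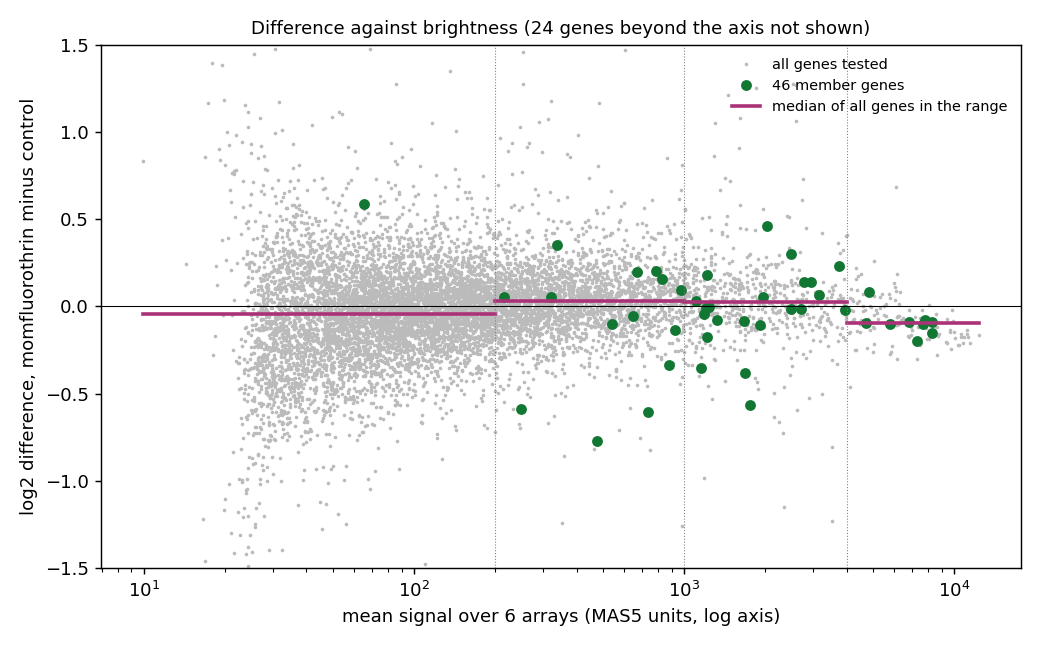
Log2 difference between momfluorothrin and control livers (vertical axis) against the mean signal over 6 arrays (horizontal log axis, MAS5 units), with all 9200 genes tested in grey, the 46 members in green and the median of all genes in each range of signal as a line. The line lies at -0.094 for genes over 4000, where 9 members sit, and 24 genes beyond the vertical axis are not shown.

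In the urea cycle, 6 of 7 genes had lower means in treated livers and 1 a higher mean, by small amounts, and none passed the test (median log2 difference -0.082). Of all genes with a mean signal over 4000, the range of Cps1, Ass1 and Arg1, 78.2% were lower. The share was 40.3% at 1000 to 4000, the range of Otc, Asl and Slc25a15, and 41.8% at 200 to 1000, that of Nags. Cps1, which makes carbamoyl phosphate and brings ammonia into the cycle, had signals of 7410, 8230 and 7743 on the 3 control arrays, in the order of the replicate numbers, and 7051, 6798 and 6544 on the 3 treated ones. All treated arrays lay below all control arrays, and the difference was a log2 of -0.20 ± 0.068 (SE, n = 3, adjusted p = 0.338 in limma). A second Cps1 probe set gave -0.18 ± 0.067 with the groups apart as well. Ass1, argininosuccinate synthetase, which joins citrulline to aspartate, had 8335, 8800 and 8959 on the control arrays and 7244, 8203 and 8017 on the treated arrays. Its groups did not overlap either, at a log2 of -0.15 ± 0.071 (SE, n = 3, adjusted p = 0.452 in limma).

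Both genes belong to the brightest range, in which 147 genes with a mean signal over 4000 had a median log2 difference of -0.094, with 78.2% of them lower and 32.7% lower with groups apart. The 9 members in that range (Tdo2, Ass1, Arg1, Hpd, Cps1, Mat1a, Ahcy, Bhmt and Glud1) had the same median, -0.094, and 8 of them were lower. With quantile normalization the difference of Cps1 was -0.070 and that of Ass1 -0.035 (adjusted p = 0.728 and 0.858 in limma, with ranges of 0.276 to 0.728 and 0.403 to 0.858 over all alternatives). Without momfluorothrin replicate 1 that of Ass1 was -0.10.

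Otc, ornithine transcarbamylase, which forms citrulline in mitochondria, was the only urea cycle gene with a higher mean. Its signals were 3467, 3538 and 3397 on the control arrays and 4356, 3841 and 4039 on the treated arrays. Every treated array exceeded every control array, at a log2 of 0.23 ± 0.072 (SE, n = 3, 95% interval 0.070 to 0.40 from limma, adjusted p = 0.287). The 606 genes with a mean signal of 1000 to 4000, the range of Otc, had a median of 0.028. The difference kept its direction under all 17 alternatives, at 0.18 to 0.27.

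The other 4 urea cycle genes overlapped between the groups. Arg1, the arginase that releases urea, had 7786, 8614 and 7577 on the control arrays and 7576, 7440 and 7636 on the treated arrays (log2 -0.080 ± 0.069, SE). Control replicate 2 stood above the other 5 arrays, which lay close together. Asl, argininosuccinate lyase, had 1437, 1512 and 1174 on the control arrays and 1093, 1568 and 1261 on the treated arrays (log2 -0.080 ± 0.14). The spread within each group was wider than the distance between the means, and a second Asl probe set gave -0.11 ± 0.14. Nags, which makes the N-acetylglutamate that Cps1 needs, had 484, 634 and 580 on the control arrays and 610, 461 and 511 on the treated arrays (log2 -0.10 ± 0.13). Slc25a15, the mitochondrial carrier that exchanges ornithine for citrulline, had 1676, 1980 and 1531 on the control arrays and 1572, 1699 and 1604 on the treated arrays (log2 -0.082 ± 0.10). Its 5 tested probe sets ranged from -0.15 to -0.0085, and a sixth was too dim to test. The adjusted p of these 4 genes was 0.686 to 0.859 in limma, and the 95% intervals of the log2 differences reached from -0.41 to 0.25.

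Among the pericentral pair, Oat was lower in treated livers and Glul was not. Oat, which converts ornithine to glutamate semialdehyde, had 2220, 2392 and 1837 on the control arrays and 1584, 1311 and 1453 on the treated arrays. All treated arrays lay below all control arrays. The mean went from 2150 ± 284 to 1449 ± 136 (SD, n = 3), a log2 difference of -0.56 ± 0.11 (SE, 95% interval -0.82 to -0.31 from limma), which did not pass (adjusted p = 0.136 in limma). Over the 17 alternatives the difference of Oat was -0.67 to -0.48 and its adjusted p 0.0706 to 0.353, so it passed under none of them.

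Glul, glutamine synthetase, had 1388, 909 and 1398 on the control arrays and 1427, 1092 and 1109 on the treated arrays (log2 -0.0099 ± 0.18, SE, 95% interval -0.41 to 0.39, adjusted p = 0.987 in limma). The low value of control replicate 2 made the control group the wider of the 2. Its other 2 probe sets gave 0.15 ± 0.13 and 0.069 ± 0.083, and the sign of the Glul difference turned under 7 of the 17 alternatives.

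Set side by side on each array as log2 deviations from the control mean, the 7 urea cycle genes averaged -0.050, 0.11 and -0.059 on the control arrays and -0.069, -0.048 and -0.081 on the treated arrays. Oat stood at 0.055, 0.16 and -0.22 on the control arrays and -0.43, -0.70 and -0.56 on the treated arrays. Glul stood at 0.20, -0.41 and 0.21 on the control arrays and 0.24, -0.15 and -0.12 on the treated arrays. The treated deviations of Oat thus lay below all of those of the urea cycle, while those of Glul ranged on both sides of them. Because the genes were chosen with earlier results known, no test was made of this contrast.

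**Figure D2:**
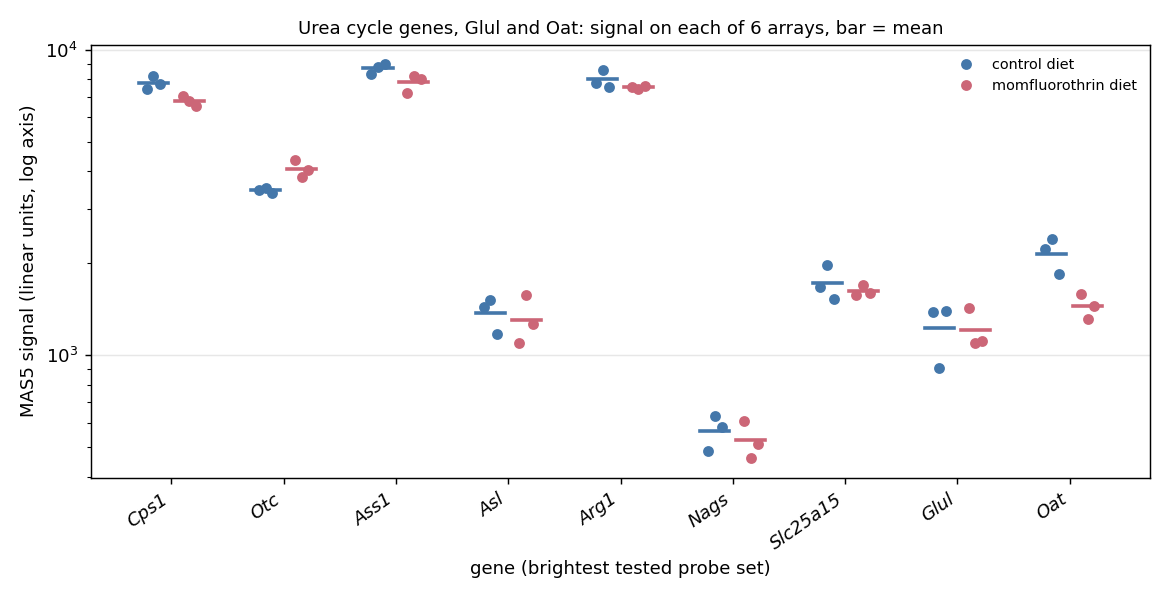
MAS5 signal (vertical log axis) of the 7 urea cycle genes, Glul and Oat on each of 6 arrays, with 3 control arrays and 3 momfluorothrin arrays per gene and bars at the group means. The groups do not overlap for Cps1, Otc, Ass1 and Oat, with Otc the one higher in treated livers, and they overlap for the other 5 genes. Of all genes tested 18.3% had groups apart, with 26.2% at a mean signal of 1000 to 4000 and 36.1% over 4000.

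The sequences before the annotated start of 4 of these genes are shown because they span the contrast: Cps1 and Otc, periportal genes whose signals differed in opposite directions, and the pericentral Oat and Glul. They are the 250 bases upstream of the start in the RefSeq promoter table (build GRCr8), 5′ to 3′ on the strand of the gene. Capitals mark CTTTGA or its reverse complement TCAAAG, the core recognised by TCF and LEF factors, which carry the Wnt signal that maintains pericentral expression.
Cps1, chr9:76063613-76063862, plus strand: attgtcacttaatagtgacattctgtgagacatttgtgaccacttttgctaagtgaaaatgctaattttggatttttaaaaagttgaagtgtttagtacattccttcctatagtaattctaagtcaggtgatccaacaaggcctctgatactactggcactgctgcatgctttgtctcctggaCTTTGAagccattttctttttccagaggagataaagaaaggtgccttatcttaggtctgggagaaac
Otc, chrX:15202474-15202723, minus strand: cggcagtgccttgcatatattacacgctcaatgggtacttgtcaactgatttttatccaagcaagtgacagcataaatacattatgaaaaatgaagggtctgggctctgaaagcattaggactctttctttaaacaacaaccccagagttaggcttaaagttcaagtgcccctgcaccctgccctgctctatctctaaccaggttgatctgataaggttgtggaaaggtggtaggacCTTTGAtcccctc
Oat, chr1:196797755-196798004, minus strand: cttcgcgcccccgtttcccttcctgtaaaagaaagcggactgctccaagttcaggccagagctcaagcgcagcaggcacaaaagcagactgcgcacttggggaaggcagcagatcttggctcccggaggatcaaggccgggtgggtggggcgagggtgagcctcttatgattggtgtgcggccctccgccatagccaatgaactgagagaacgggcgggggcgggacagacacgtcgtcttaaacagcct
Glul, chr13:68519250-68519499, plus strand: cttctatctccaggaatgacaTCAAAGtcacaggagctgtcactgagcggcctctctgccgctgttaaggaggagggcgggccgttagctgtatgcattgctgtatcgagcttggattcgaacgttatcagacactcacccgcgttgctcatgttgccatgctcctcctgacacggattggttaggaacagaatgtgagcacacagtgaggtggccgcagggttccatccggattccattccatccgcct

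The core occurred once in the windows of Cps1, Otc and Glul and not in that of Oat, so its presence did not follow the zone of the gene or the direction of its difference in these 4. Of the 46 genes, 38 matched the table, and 9 of these windows (23.7%) held the core on either strand, against 13.8% of 27457 windows of the same length. The cyclic AMP response half-site TGACG, searched on both strands, was in 3 of 38 windows (Prodh2, Gls2 and Mat1a, 7.89%) against 19.0% of all windows. The palindrome TTGCGCAA, which C/EBP factors bind, was in 0 of 38 and in 0.164% of all windows. CTTTGA and TGACG can overlap through their shared TGA, no motif contains another, and a match is a description of these letters, not of binding.

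Further zonation genes, on lists of periportal and pericentral genes, gave the setting for Oat and Glul. Of 22 tested periportal genes, members included, 4 were lower and 2 higher with groups apart (27.3%, against 18.3% of all genes), with a median log2 difference of -0.080. All 6 are among the 46, and 2 of them, Agxt and Gldc, were as low as Oat, while the 8 others outside the 46 had a median of -0.070. Of 15 tested pericentral genes, 3 were lower and 1 higher with groups apart (26.7%), with a median of -0.15. Oat is 1 of the 3 lower genes. Most of the 22 periportal genes had a mean signal over 1000, while the pericentral genes spread over all 4 ranges of signal. Of all genes, 16.5% had groups apart at up to 200, 19.4% at 200 to 1000, 26.2% at 1000 to 4000 and 36.1% over 4000. The medians of all genes in these ranges were -0.044, 0.032, 0.028 and -0.094. Axin2, a feedback inhibitor and direct target of Wnt signalling, was dim and lower, at 84.2, 88.9 and 82.5 on the control arrays and 69.6, 47.0 and 60.1 on the treated arrays (log2 -0.55 ± 0.17, SE, adjusted p = 0.281 in limma). Nkd1, Znrf3 and Tbx3 of the same list had overlapping groups, as had Glul, at -0.028 ± 0.41, -0.25 ± 0.17 and -0.29 ± 0.26 for the first 3. A change in Wnt signalling was not tested. Gulo, which makes ascorbate, was lower (log2 -0.43 ± 0.089, adjusted p = 0.136 in limma), and Aldh1a1, a retinaldehyde dehydrogenase, rose (1.27 ± 0.15, adjusted p = 0.0186 in limma). Of the 15 pericentral genes, 10 had lower means (66.7%, against 52.5% of all genes) and 5 higher means, so they did not share 1 direction.

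For ammonia and glutamate, Gls2, the liver glutaminase that feeds ammonia to Cps1, had 1758, 2310 and 1896 on the control arrays and 1937, 1967 and 1620 on the treated arrays (log2 -0.11 ± 0.12). Glud1, glutamate dehydrogenase, which releases ammonia from glutamate, had -0.094 ± 0.072 and, in a second probe set, -0.027 ± 0.070. Both overlapped between the groups. In proline breakdown, Prodh2, which oxidises hydroxyproline, had 677, 752 and 774 on the control arrays and 794, 894 and 842 on the treated arrays. All treated arrays were higher, at a log2 of 0.20 ± 0.089 (SE, adjusted p = 0.434 in limma). Prodh, proline dehydrogenase, overlapped at -0.056 ± 0.16.

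Among aminotransferases and serine dehydratases the differences were the widest of the set, from -0.77 to 0.58, and none of 6 passed. Sds, serine dehydratase, which turns serine into pyruvate for gluconeogenesis, had 520, 708 and 649 on the control arrays and 268, 586 and 306 on the treated arrays. Treated replicate 2 lay within the control range and the other 2 were well below it, at a log2 of -0.77 ± 0.26 (SE, n = 3, adjusted p = 0.332 in limma). Without that array the difference was -1.12 (adjusted p = 0.0926 in limma, 0.0926 to 0.640 over all alternatives).

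Agxt, which transaminates alanine and serine with glyoxylate, had 780, 1186 and 802 on the control arrays and 704, 473 and 634 on the treated arrays. The groups did not overlap, and the log2 difference was -0.60 ± 0.19 (SE, 95% interval -1.03 to -0.17, adjusted p = 0.294 in limma). Sdsl, a serine dehydratase-like enzyme, was dim and higher, at 41.6, 62.3 and 58.9 on the control arrays and 81.0, 89.9 and 70.7 on the treated arrays. The groups were apart at 0.58 ± 0.19 (SE, adjusted p = 0.307 in limma) and also in its second probe set, at 0.34 ± 0.16. The cytosolic aspartate aminotransferase Got1 had 1077, 1267 and 711 on the control arrays and 710, 1063 and 637 on the treated arrays, with the groups overlapping. Gpt, alanine aminotransferase, and Got2, the mitochondrial aspartate aminotransferase, had log2 differences of 0.052 ± 0.12 and -0.015 ± 0.069. A second, dim Got2 probe set gave -0.30 ± 0.15 with groups apart (adjusted p = 0.483 in limma). Of all genes with a mean signal of up to 200, 16.5% had groups apart. Sds and Sdsl thus stood at opposite ends of the group.

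In tyrosine breakdown 1 of 4 genes had groups apart. Of all genes, 26.2% had groups apart at a mean signal of 1000 to 4000, the range of Tat, Hgd and Fah, and 36.1% over 4000, that of Hpd. Hgd, homogentisate dioxygenase, which opens the aromatic ring, had 1303, 1496 and 1149 on the control arrays and 1045, 995 and 1027 on the treated arrays (log2 -0.36 ± 0.10, SE, adjusted p = 0.258 in limma). The treated arrays lay close together below all controls. Tat, tyrosine aminotransferase, the first step and a classic glucocorticoid target, had 2187, 2350 and 1014 on the control arrays and 2245, 2349 and 2564 on the treated arrays. Control replicate 3 was far below every other array, and without it the difference of 0.46 ± 0.27 came down to 0.071. Hpd and Fah, the second and the last step, had -0.10 ± 0.065 and 0.068 ± 0.074.

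In tryptophan breakdown 4 of 5 genes had lower means. Of all genes, 78.2% were lower in the range of signal of Tdo2, 40.3% in that of Kynu, Haao and Aadat, and 41.8% in that of Kmo. Kynu, kynureninase, which cleaves kynurenines, had 1753, 1712 and 2334 on the control arrays and 1653, 1264 and 1518 on the treated arrays. The groups were apart by a small gap, at a log2 of -0.38 ± 0.14 (SE, adjusted p = 0.367 in limma), and without control replicate 3 the difference was -0.24. Tdo2, the rate-limiting dioxygenase, and Kmo, the kynurenine hydroxylase, had -0.088 ± 0.085 and 0.16 ± 0.093. Haao, further down the pathway, and the aminotransferase Aadat had -0.041 ± 0.081 and -0.17 ± 0.098, all with overlapping groups. The histidine enzymes Hal and Uroc1, its first and second step, had 0.029 ± 0.10 and 0.14 ± 0.086 and overlapped too.

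The 5 genes of branched-chain amino acid and lysine breakdown all had higher means in treated livers, with a median log2 difference of 0.14 and groups apart in 3 of them. None passed the test. Of all genes in the 2 ranges of signal that hold them, 200 to 1000 and 1000 to 4000, 41.8% and 40.3% were lower and 19.4% and 26.2% had groups apart. Bckdha, the E1 alpha subunit of the complex that commits branched-chain keto acids to oxidation, had 275, 316 and 305 on the control arrays and 352, 392 and 401 on the treated arrays. Every treated array was higher, at 0.35 ± 0.10 (SE, 95% interval 0.13 to 0.58, adjusted p = 0.252 in limma). A second, dimmer Bckdha probe set gave -0.12 ± 0.21, and the mean of both 0.12. Its partner subunit Bckdhb had 0.094 ± 0.084 with overlapping groups.

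Ivd, isovaleryl-CoA dehydrogenase of leucine breakdown, had 656, 555 and 667 on the control arrays and 727, 673 and 746 on the treated arrays (0.20 ± 0.099, SE, adjusted p = 0.485 in limma), and without control replicate 2 the difference was 0.11. Gcdh, glutaryl-CoA dehydrogenase of lysine and tryptophan breakdown, had 2940, 2767 and 2724 on the control arrays and 3049, 3141 and 3106 on the treated arrays (0.14 ± 0.067, adjusted p = 0.466 in limma). For both genes the treated arrays lay above all controls by a small gap. The other 2 Gcdh probe sets gave 0.26 ± 0.088 and, at the dimmest, -0.24 ± 0.14, and the mean of all 3 gave 0.055. Mccc1, a subunit of the carboxylase that follows Ivd, had 0.055 ± 0.099.

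For glycine, Gldc, the decarboxylase that starts the glycine cleavage system, had 255, 315 and 351 on the control arrays and 232, 223 and 161 on the treated arrays. All treated arrays were lower, at -0.59 ± 0.17 (SE, 95% interval -0.97 to -0.20, adjusted p = 0.258 in limma), and its other 2 probe sets were too dim to test. Amt, the aminomethyltransferase of the same system, overlapped at 0.056 ± 0.12. For pyrimidines, Upb1, beta-ureidopropionase, the last step of uracil breakdown, had 2214, 2115 and 2430 on the control arrays and 2704, 2670 and 2940 on the treated arrays. Every treated array was higher, at 0.30 ± 0.081 (SE, 95% interval 0.12 to 0.48, adjusted p = 0.231 in limma). Dpyd and Dpys, the first and second step, overlapped at -0.0026 ± 0.10 and 0.18 ± 0.21.

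The 6 genes of methionine and sulfur metabolism gave small differences, from -0.14 to 0.080, and none had groups apart. Of all genes, 36.1% had groups apart over 4000, the range of Mat1a, Ahcy and Bhmt. The share was 26.2% at 1000 to 4000, that of Gnmt and Cth, and 19.4% at 200 to 1000, that of Cbs. Mat1a makes S-adenosylmethionine (-0.091 ± 0.067), Gnmt spends it on glycine (-0.019 ± 0.099) and Ahcy splits the product (-0.10 ± 0.068). Bhmt, which remethylates homocysteine with betaine, varied most of the 6, with 4018, 5671 and 4620 on the control arrays and 5761, 3800 and 5681 on the treated arrays. Cbs and Cth, which convert homocysteine to cysteine, had -0.14 ± 0.10 and -0.013 ± 0.14.

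**Figure D3:**
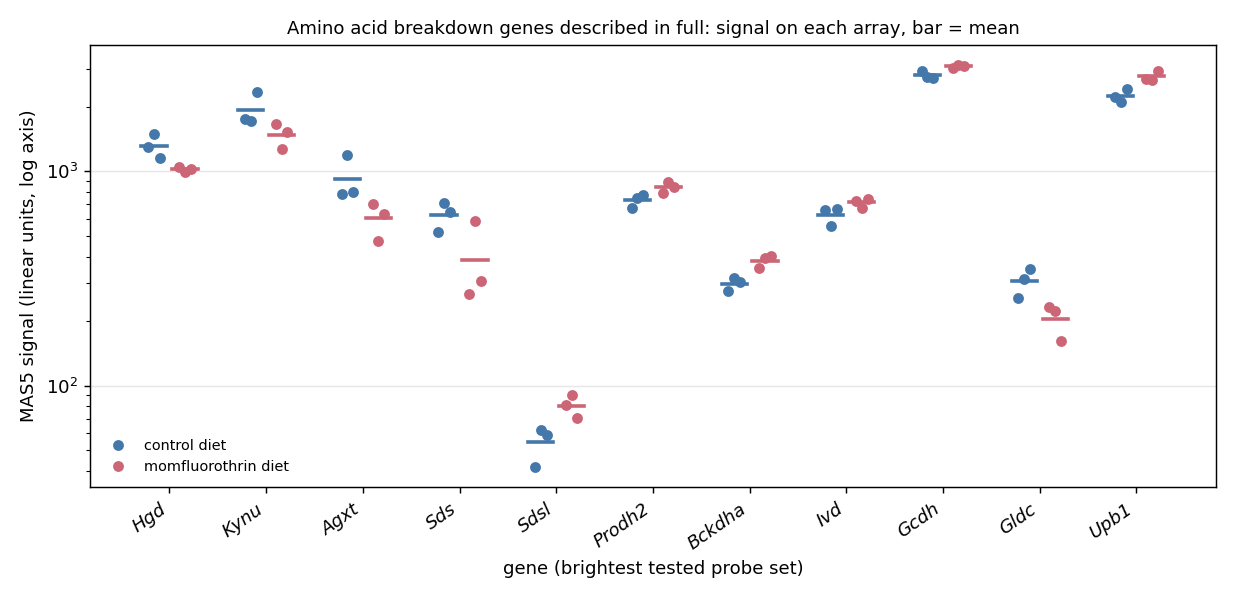
MAS5 signal (vertical log axis) of 11 amino acid and pyrimidine breakdown genes on each of 6 arrays, 3 per group, with bars at the group means. These 11 are shown because they had an unadjusted p under 0.05 in limma or groups apart. The groups overlap for Sds alone among them, through the treated signal of 586, and Sdsl, Prodh2, Bckdha, Ivd, Gcdh and Upb1 are higher in treated livers.

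**Figure D4:**
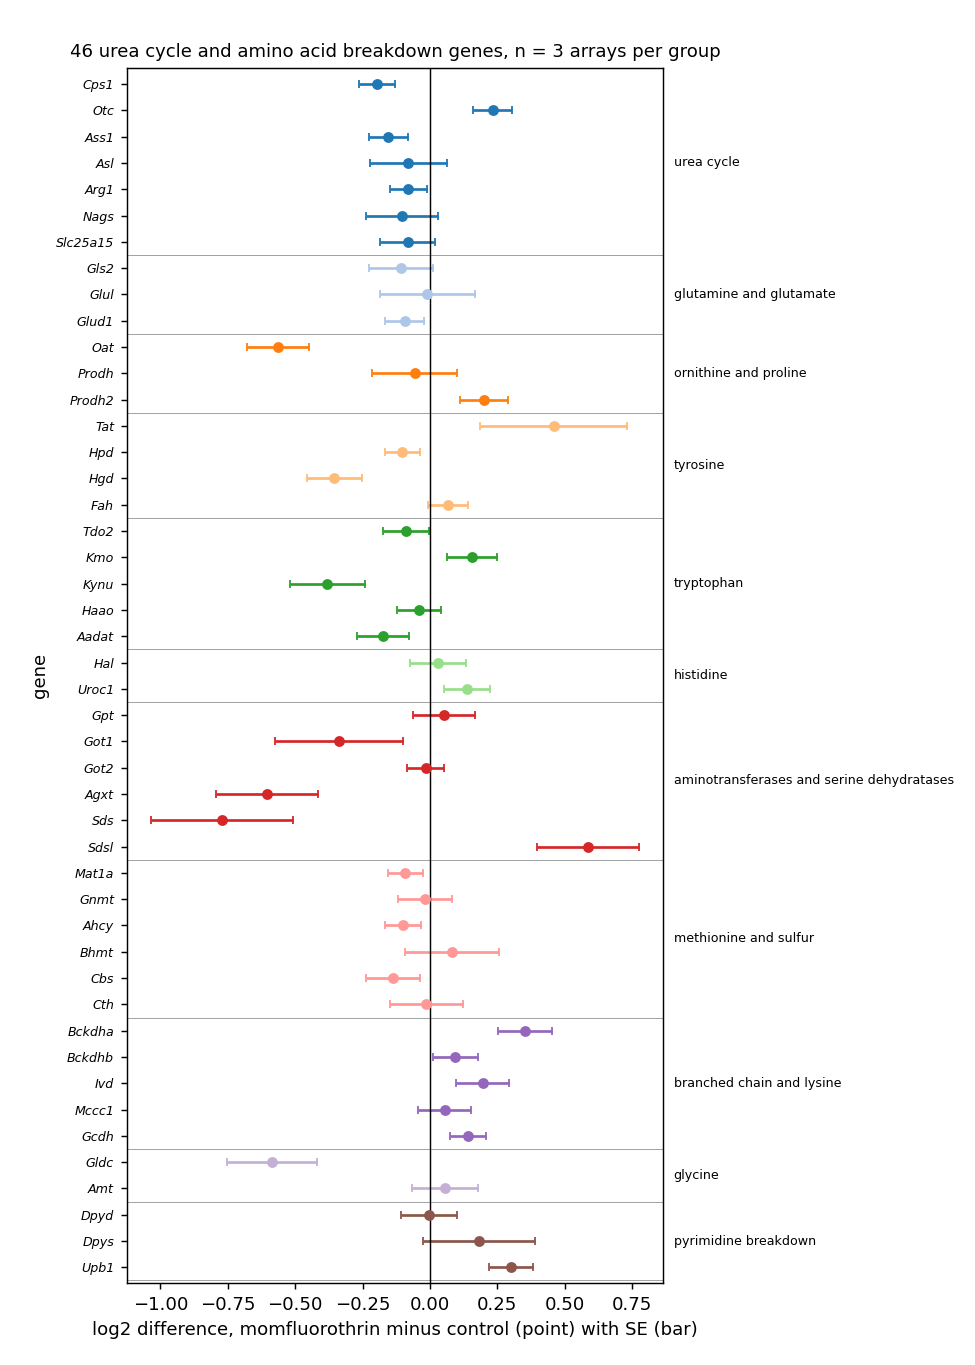
Log2 difference between momfluorothrin and control (horizontal axis, point) with its SE (bar) for all 46 genes, grouped by pathway, n = 3 arrays per group. Most points lie within 0.25 of 0, Sds, Agxt, Gldc and Oat lie lowest, and the 5 branched-chain and lysine genes all lie above 0.

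Other genes of the same pathways, from a list of 77, gave no call either. Of 58 tested, 41 had higher and 17 lower means (median log2 difference 0.062), and 12 were higher and 2 lower with groups apart. Of all genes 52.5% were lower, and 9.04% were higher and 9.23% lower with groups apart. Most of the 58 had a mean signal of 200 to 4000. Of all genes at 200 to 1000 and at 1000 to 4000, 41.8% and 40.3% were lower. In these 2 ranges 19.4% and 26.2% had groups apart, and 6.03% and 7.43% were lower with groups apart. Ddc, aromatic amino acid decarboxylase, had 221, 251 and 147 on the control arrays and 420, 433 and 405 on the treated arrays (1.06 ± 0.18, SE, adjusted p = 0.0777 in limma). Chdh, which makes the betaine used by Bhmt, and Csad, a decarboxylase of taurine synthesis, were higher with groups apart at 0.40 ± 0.079 and 0.48 ± 0.12 (adjusted p = 0.127 and 0.194 in limma). Of 23 tested regulators, none passed. Klf15, a transcription factor that promotes amino acid breakdown in liver, was higher, at 1120, 1331 and 1147 on the control arrays and 1486, 1726 and 1614 on the treated arrays (0.43 ± 0.095, adjusted p = 0.168 in limma). Atf5, a factor of the amino acid stress response, was lower at -0.99 ± 0.19, and Igfbp1, a hormone-controlled liver protein, was higher at 1.25 ± 0.27 (adjusted p = 0.115 and 0.161 in limma), both with groups apart.

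The makeup of the samples was read from marker genes. All 9 hepatocyte markers on the array were tested and 9 of 9 had lower means in treated livers, with a summed signal of 69536 to 78618 in control and 64450 to 71394 in treated livers (median log2 difference -0.13). They include the members Cps1 and Tdo2, and 8 of the 9 had a mean signal over 4000, where 78.2% of all genes were lower. Serpina1 and Ttr, both in that range, were lower with groups apart (log2 -0.22 ± 0.069 and -0.15 ± 0.071, SE, adjusted p = 0.304 and 0.459 in limma), as was Cps1. In that range 32.7% of all genes were lower with groups apart. Kupffer cell markers (6 of 6 tested) summed to 1315 to 1742 and 1344 to 1614, stellate cell markers (7 of 8) to 1849 to 2333 and 1987 to 2129, and endothelial markers (7 of 7) to 2302 to 2647 and 2566 to 2781. Among the endothelial markers Eng was lower and Lyve1 higher with groups apart (log2 -0.45 ± 0.12 and 0.31 ± 0.14, SE, adjusted p = 0.222 and 0.429 in limma). They are 28.6% of the 7 tested, against 18.3% of all genes with groups apart. Of the cholangiocyte markers 2 of 6 were bright enough to be tested (Krt19 and Krt7 were not), of lymphocyte and neutrophil markers 3 of 9, of blood markers 3 of 3, of pancreas markers 1 of 5 and of kidney markers 0 of 3. The summed signals of the cholangiocyte list were 478 to 771 in control and 311 to 604 in treated livers. Onecut1, the brighter of the 2 tested, made up much of these sums. It had 671, 498 and 341 on the control arrays and 291, 455 and 146 on the treated arrays, with overlapping groups. Epcam was dim and higher, at 67.1, 83.1 and 95.1 on the control arrays and 138, 107 and 134 on the treated arrays. Its log2 difference was 0.63 ± 0.16 (SE, adjusted p = 0.220 in limma), which did not pass. The 2 genes went in opposite directions, so the sum was not read as a level of cholangiocytes. The sums were 175 to 202 and 169 to 220 for lymphocytes and neutrophils, and 3959 to 4192 and 3479 to 5194 for blood. They were 519 to 644 and 387 to 543 for pancreas, with only Cela1 tested, and 22.7 to 32.6 and 27.6 to 33.0 for kidney. Array medians were 27.0 to 29.4 in control and 23.1 to 26.5 in treated livers. The part of these shifts in the differences above was not tested, and in whole tissue fewer cells of a type and less RNA per cell cannot be told apart.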

How the data were processed

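Liver RNA of 6 rats was hybridised to 1-colour Affymetrix arrays, 1 per animal, in 2 groups of 3. The authors deposited intensity values on a linear scale, for which the submitters' processing notes name MAS5. Its version and settings are not stated there, and no detection calls were used. All arrays had the same 2% trimmed mean, so no further scaling was applied. Of 31099 probe sets, 57 controls were left out, and 15778 with a signal above the array median on at least 3 arrays were tested. Log2 signals with no pseudocount were compared in limma 3.58.1 in R 4.3.3 (lmFit, then a trended eBayes). Tests were 2-sided, p-values were adjusted by Benjamini-Hochberg over the 15778 probe sets, and the threshold was 0.05. A gene was taken by the brightest of its tested probe sets (mean log2 signal). Signals are means ± SD, log2 differences are momfluorothrin minus control ± SE. The number of arrays limits the precision.

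Names came from the platform annotation, in which 20826 probe sets had 1 symbol, 436 several and 9780 none, and 20758 of the first matched a GRCr8 gene table. An entry of the list that marks Gstz1 as excluded names no gene. The members and lists were chosen with earlier results of these data known. Values on every array are given for the urea cycle genes, Oat, Glul and every member with an unadjusted p under 0.05 or with groups apart; for Tat, Got1, Gls2 and Bhmt they were added after their values were seen. From each other list, called genes and up to 3 with groups apart are named. Onecut1, Nkd1, Znrf3 and Tbx3 were added after their values were seen. Of the alternatives, 11 changed the filter, scaling, pseudocount, variance model, array weights, probe set rule or replicate block, and 6 left out 1 array each. The fit was tested on simulated data. The animals, separate per the labels, are numbered 1 to 3 in each group, and no label says that numbers pair them. No label gives a batch.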

Additional observations from a re-analysis of the deposited data

How the results depend on the processing

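No member passed the threshold under any of the 17 alternatives, and the count of members with an unadjusted p under 0.05 in limma stayed at 8 to 14 against 11. Over all genes the share with such a p was 8.48% to 13.1% against 12.2%. Members with groups apart numbered 9 with quantile normalization against 14, where the share over all genes was 17.6% against 18.3%. With 1 array left out they numbered 17 to 21, and the share over all genes was 26.1% to 30.2%. The probe sets called over the whole table, 27 in the fit reported, numbered 3 with eBayes without a trend, 44 with a robust prior and 15 with the replicate block, and 5 to 28 with 1 array left out. The replicate block called no member and gave 14 members with an unadjusted p under 0.05. Same-numbered arrays deviated together at r = -0.0997, 0.105 and -0.0648, so the numbers were not taken as pairs. Of the 20 genes named by the rule, 4 turned sign in some setting, all with differences near 0: Arg1 was 0.036 with quantile normalization, and Glul was 0.025 with median centring, 0.011 with array weights and 0.069 as the mean of its probe sets. With 1 array left out Glul ranged from -0.21 to 0.095, Slc25a15 from -0.17 to 0.020 and Asl from -0.22 to 0.042. The causes were not tested.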
